A study of Mus musculus with 6 samples.

Results

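Genes that mark the layers of the cerebral cortex were followed in the prelimbic cortex (PL) of stressed mice: Fezf2, Etv1, Sema3e and Rxfp1 for the deep layers, Cux2, Otof, Rgs8 and Cdh13 for the upper layers, and Slc17a6 beside them. These 9 genes, each with 1 probe, were chosen from the 899 probes that the study named because their signal differed by at least 1.2-fold between groups, out of 25697 probes on the array. All 9 were named from CRST+RS5 against CRST, and Sema3e from CRST against CON as well. Gene expression was measured on 6 bead arrays, 2 per group, with RNA from the PL of male C57BL/6 mice aged 3 months, and tissue was taken on post-stress day 22. CON mice were not restrained. CRST mice underwent restraint of 2 h per day on 14 days. CRST+RS5 mice received the same 2 h treatment and were then restrained for 5 min per day on 14 days. Each array carried RNA pooled from 6 to 7 animals, so the pool was the unit of replication and the number of arrays limited the precision of every value.

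Projection neurons of the cortex are born in sequence and settle in layers, and each layer keeps a set of transcription factors, adhesion molecules and receptors that marks it in the adult. Deep layer neurons send axons out of the cortex to the brainstem, spinal cord and thalamus, and they depend on factors such as Fezf2, which directs the identity of subcerebral projection neurons. Upper layer neurons connect cortical areas with each other and carry factors such as Cux2, which controls dendrite branching and spine formation. Slc17a6 encodes the vesicular glutamate transporter VGLUT2, which is abundant in thalamic and other subcortical excitatory neurons and sparse in most of the adult cortex.

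The start regions of the members differed in base composition, and 4 of them are shown, those of Fezf2 and Sema3e for the deep and of Cux2 and Rgs8 for the upper layers. Of the 9 members, 6 had a start region in the RefSeq table of the assembly GRCm38.p6, and Rxfp1, Otof and Cdh13 are named only. Each sequence is the 250 bases before the farthest upstream annotated start, written from 5′ to 3′ on the strand of the gene. Capitals mark a GC box (GGGCGG or its reverse complement CCGCCC) or a glucocorticoid receptor half-site (AGAACA or its reverse complement TGTTCT).
Fezf2 (chr14:12345866-12346115, minus strand): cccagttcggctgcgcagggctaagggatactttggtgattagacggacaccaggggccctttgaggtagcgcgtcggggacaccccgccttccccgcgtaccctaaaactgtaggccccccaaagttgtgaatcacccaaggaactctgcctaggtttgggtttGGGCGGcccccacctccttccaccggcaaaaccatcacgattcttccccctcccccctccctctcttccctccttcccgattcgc
Sema3e (chr5:14025026-14025275, plus strand): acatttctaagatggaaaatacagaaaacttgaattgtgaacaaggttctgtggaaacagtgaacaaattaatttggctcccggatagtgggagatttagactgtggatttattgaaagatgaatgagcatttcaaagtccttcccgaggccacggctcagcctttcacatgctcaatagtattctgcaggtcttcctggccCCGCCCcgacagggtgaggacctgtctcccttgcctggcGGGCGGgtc
Cux2 (chr5:122049852-122050101, minus strand): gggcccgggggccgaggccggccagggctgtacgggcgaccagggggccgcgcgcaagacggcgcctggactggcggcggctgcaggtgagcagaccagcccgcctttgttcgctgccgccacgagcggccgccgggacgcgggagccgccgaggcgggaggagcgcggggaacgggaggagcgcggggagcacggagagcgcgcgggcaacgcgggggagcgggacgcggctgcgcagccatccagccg
Rgs8 (chr1:153652787-153653036, plus strand): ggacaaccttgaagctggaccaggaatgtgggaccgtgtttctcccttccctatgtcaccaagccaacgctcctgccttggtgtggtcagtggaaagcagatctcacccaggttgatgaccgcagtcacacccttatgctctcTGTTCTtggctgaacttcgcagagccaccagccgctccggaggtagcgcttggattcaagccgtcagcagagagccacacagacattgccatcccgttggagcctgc
The Cux2 region held 80.0% G and C and 40 CpG dinucleotides, more G and C than 98.8% of the 32851 start regions of the same length, whose median was 52.4%. The Fezf2 region held 61.2% G and C, that of Rgs8 57.2%, that of Slc17a6 53.2%, that of Sema3e 48.0% and that of Etv1 46.4%. On both strands, the GC box was found once in Fezf2, 2 times in Sema3e and once in Slc17a6, and 32.7% of all start regions held it. The half-site AGAACA was found once in Rgs8 and in 16.1% of all start regions. The letters CCAAT (33.8% of all start regions), CACGTG (6.02%) and TGACGTCA (1.55%) were in none of the 6 regions. A match is a description of letters and not a bound site.

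The number of detected probes (detection p below 0.05) was 12645 to 13407 per array, and the 13083 probes that were detected on each array of 1 group or more entered the tests. Of the layer genes, 8 of the 9 members were above the detection limit on all 6 arrays, as were 11942 of these 13083 probes. Rxfp1 was detected on 5 arrays and missed it on CRST+RS5 replicate 1, where its detection p was 0.134. Markers of cortical excitatory and of striatal neurons in general (12 and 9 listed genes) had no named probe. The label of the tissue was therefore not checked. Single arrays of CRST and of CRST+RS5 stood apart in genes of other tissues. On CRST replicate 2, all 24 detected probes of the myelin list had their highest signal, and on CRST+RS5 replicate 2, 3 detected probes of the olfactory mucosa list summed to a signal of 9132 against 602 to 682 on the other arrays. The values of the layer genes are therefore given with and without these arrays where that moved them.

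Fezf2 had a log2 signal of 11.94 and 11.98 in CON, 12 and 12.33 in CRST, and 11.67 and 11.85 in CRST+RS5 (replicate 1, then replicate 2, in this and the following sentences; probe ILMN_2932692). Both CRST arrays lay above and both CRST+RS5 arrays below the CON arrays, and CRST replicate 2 was the highest of all. Etv1, a transcription factor of the ETS family that marks pyramidal neurons with axons leaving the cortex, had 8.36 and 8.63 in CON, 8.30 and 8.50 in CRST, and 8.13 and 8.04 in CRST+RS5 (ILMN_2649709). Its CON and CRST arrays overlapped, and both CRST+RS5 arrays lay below the other 4. Sema3e, a secreted semaphorin that guides axons and vessels through its receptor plexin-D1, had 8.15 and 8.25 in CON, 8.52 and 8.47 in CRST, and 8.06 and 8.04 in CRST+RS5 (ILMN_2720976). Its 3 groups were separate, in the order CRST, CON, CRST+RS5, and replicates lay 0.03 to 0.10 apart. Rxfp1, the receptor of the peptide hormone relaxin, had 7.96 and 7.81 in CON, 8.09 and 8.08 in CRST, and 7.49 and 7.68 in CRST+RS5 (ILMN_2685751). Its groups fell in the same order without overlap, and its CRST+RS5 values lay at the limit of detection.

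Cux2 had a log2 signal of 10.77 and 10.82 in CON, 10.74 and 10.49 in CRST, and 11.01 and 11.05 in CRST+RS5 (ILMN_1234471). Both CRST+RS5 arrays were above, and both CRST arrays below, those of CON, though CRST replicate 1 was within 0.05 of the CON mean. Otof encodes otoferlin, a calcium sensor of vesicle fusion known from hair cells, and had 8.60 and 9.09 in CON, 8.66 and 8.77 in CRST, and 9.24 on both arrays of CRST+RS5 (ILMN_2651556). The CON arrays lay 0.49 apart and enclosed those of CRST, and the CRST+RS5 arrays were the highest. Rgs8, which speeds up the GTPase of Gi and Go proteins and so shortens their signal, had 11.37 and 11.30 in CON, 11.26 and 11.00 in CRST, and 11.51 and 11.55 in CRST+RS5 (ILMN_2732430). Its groups were separate in the order CRST+RS5, CON, CRST, as for Cux2. Cdh13, the membrane-anchored T-cadherin, had 8.70 and 8.72 in CON, 8.59 and 9.09 in CRST, and 8.48 and 8.60 in CRST+RS5 (ILMN_2659503). It departed from the other upper layer genes: it was highest on CRST replicate 2, the array of high myelin signal, while CRST replicate 1 lay below CON and within the range of CRST+RS5.

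Slc17a6 had a log2 signal of 10.69 and 10.94 in CON, 10.81 and 11.22 in CRST, and 10.38 and 10.77 in CRST+RS5 (ILMN_2922321). Replicates lay 0.24 to 0.41 apart, the CRST arrays overlapped those of CON, the CRST+RS5 arrays overlapped those of CON, and both CRST+RS5 arrays were below both of CRST. Its range over the 6 arrays was 0.84, wider than that of any other member (0.48 to 0.67).

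**Figure D1:**
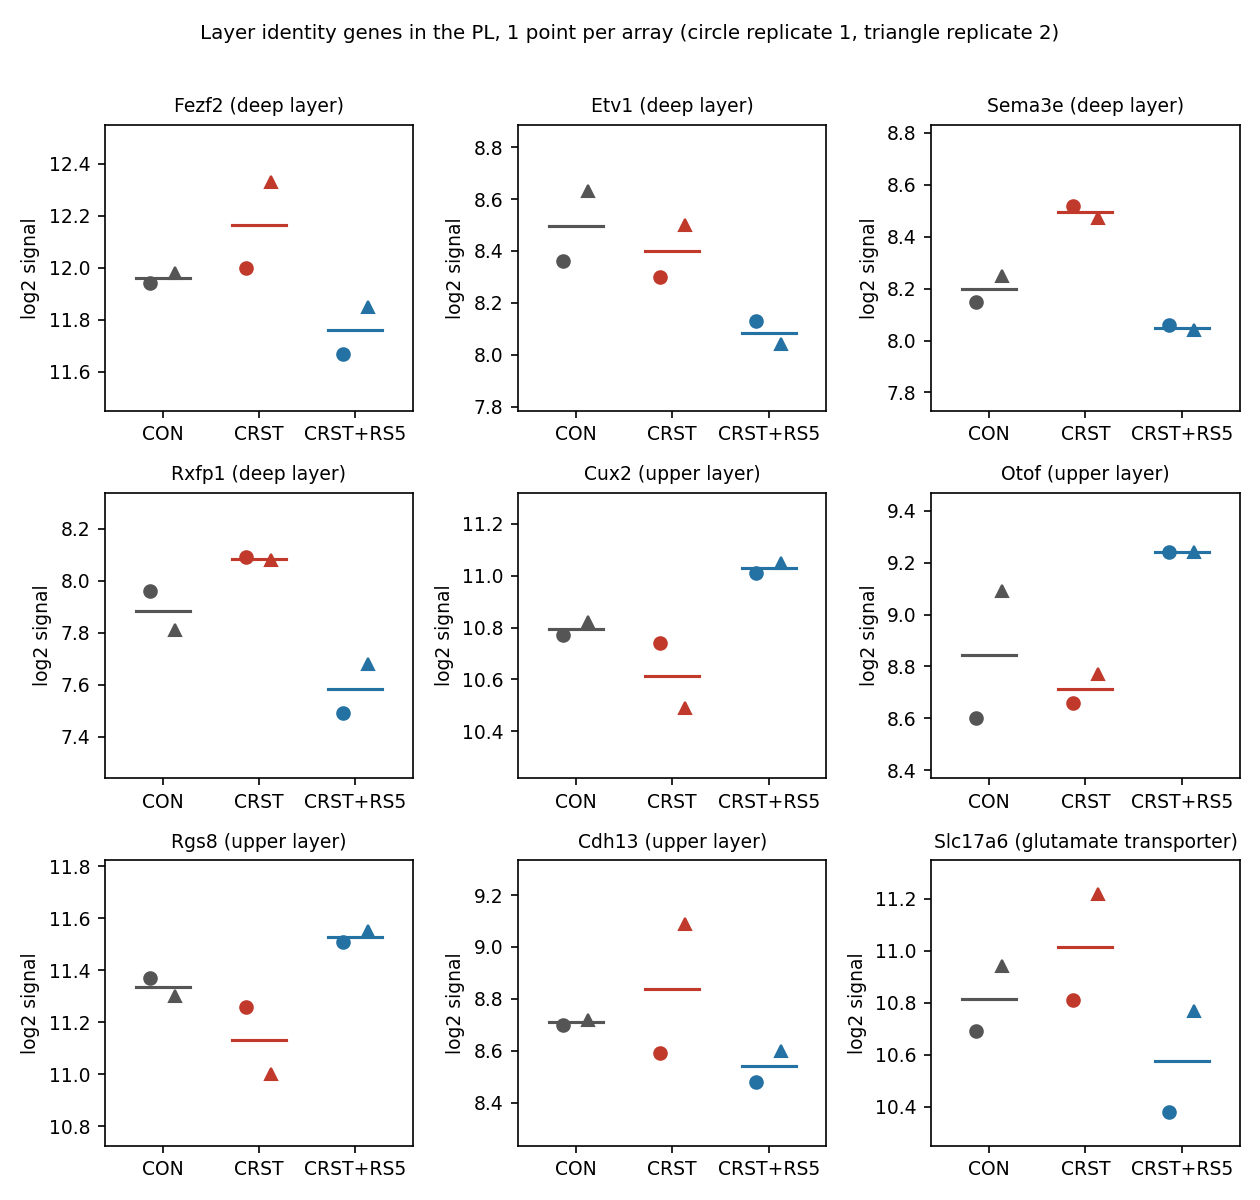
Log2 signal of the 9 members on the 6 arrays, 1 panel per gene with its own axis of equal span; circles are replicate 1, triangles replicate 2 and bars group means. Both CRST+RS5 arrays were the lowest for Etv1, Sema3e, Rxfp1 and Fezf2 and the highest for Cux2, Otof and Rgs8, and the CRST replicates of Cdh13 lay 0.50 apart.

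To ask how the 2 h restraint had altered these genes, CRST was compared with CON. Of the 4 deep layer members 3 had a higher mean in CRST, and of the 4 upper layer members 3 had a lower mean, mostly by less than 1.2-fold. The median difference was 0.21 for the 4 deep layer members and -0.15 for the 4 upper layer members, against 0 over all 13083 probes. Sema3e passed 1.2-fold upward, at 0.29 ± 0.08 on the log2 scale (difference ± SE from the fit of all 6 arrays, n = 2 arrays per group), and no member passed it downward. Over all probes, 0.780% passed 1.2-fold upward and 0.864% downward. Because Sema3e had been named in this comparison, its difference is a description. Fezf2 differed by 0.21 ± 0.12, Rxfp1 by 0.20 ± 0.09 and Slc17a6 by 0.20 ± 0.17. After background correction by neqc, Sema3e was at 0.50 and Rxfp1 at 0.44. Among the upper layer genes, Rgs8 differed by -0.20 ± 0.10, Cux2 by -0.18 ± 0.10 and Otof by -0.13 ± 0.14. Etv1 (-0.10 ± 0.11) and Cdh13 (0.13 ± 0.14) ran against the rest of their layer. The arrays did not overlap for 3 members that were higher (Fezf2, Sema3e and Rxfp1) and 2 that were lower (Cux2 and Rgs8), while 15.0% of all probes were higher and 14.3% lower without overlap. By limma with Benjamini-Hochberg adjustment over all probes, the 8 members other than Sema3e, which was not tested, had an adjusted p of 1 each, and 0 of 13083 probes passed (428 at an unadjusted p under 0.05). The CRST arrays were also used to choose the members, which limits these tests. In pooled tissue, fewer cells of a type and less RNA per cell cannot be told apart.

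One array decided several of these values. Without CRST replicate 2, the differences from CON were 0.04 for Fezf2, -0.05 for Cux2, -0.07 for Rgs8, 0.00 for Slc17a6, -0.12 for Cdh13 and -0.20 for Etv1. Sema3e and Rxfp1 differed little between the CRST replicates, at 0.32 and 0.20 without it. Without CRST replicate 1, 6 members passed 1.2-fold, with Fezf2 at 0.37 and Rgs8 at -0.33. Otof turned from -0.37 without CON replicate 1 to 0.11 without CON replicate 2, and Etv1 from -0.23 to 0.04. Without CON replicate 1, Sema3e was at 0.24 and below 1.2-fold.

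The comparison of CRST+RS5 with CRST addresses what the added 5 min restraint altered, and it is the one in which the members were chosen, so its values are a description. All 4 deep layer members and Slc17a6 were lower in CRST+RS5, and 3 of the 4 upper layer members were higher. Rxfp1 had a log2 difference of -0.50 ± 0.09 (difference ± SE, n = 2 arrays per group), and of -1.19 after background correction by neqc. Only 1 of its 2 CRST+RS5 arrays was above the detection limit, at a detection p of 0.0376, so the size of its difference is uncertain. Sema3e differed by -0.44 ± 0.08 (-0.80 with neqc), Fezf2 by -0.41 ± 0.12 and Etv1 by -0.31 ± 0.11 (-0.57 with neqc). Otof was higher by 1.44-fold, at 0.53 ± 0.14. Cux2 differed by 0.41 ± 0.10 and Rgs8 by 0.40 ± 0.10. Cdh13, at -0.30 ± 0.14, lay nearest to the criterion of 0.26 and was the one member whose arrays overlapped, and it went with the deep layer genes. Slc17a6 differed by -0.44 ± 0.17. The list of subcortical glutamatergic neurons had 2 of 8 genes named, and the one beside Slc17a6 was Zic1, a zinc finger transcription factor. Zic1 went the opposite way, with a difference of 0.29 from CRST and 0.25 from CON. Both genes were named from CRST+RS5 against CRST, and nothing is read about these neurons from 2 genes. All 9 members passed 1.2-fold by the way they were chosen, 3 upward and 6 downward, beside 2.89% of all probes upward and 1.75% downward. The arrays did not overlap for 3 members that were higher and 5 that were lower, beside 16.9% and 21.8% of all probes.

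For several members the size of these differences followed the choice of the CRST array. The direction of the group differences stayed, which the choice of the members from this comparison had largely set in advance. Without CRST replicate 2, 5 of the 9 members remained past 1.2-fold, since Fezf2 was at -0.24, Etv1 at -0.21, Slc17a6 at -0.23 and Cdh13 at -0.05. Cux2 was then at 0.29 and Rgs8 at 0.27. Sema3e (-0.47), Rxfp1 (-0.50) and Otof (0.58) were as large without it as with it. Without CRST replicate 1, Fezf2 was at -0.57, Slc17a6 at -0.65 and Cdh13 at -0.54. Without CRST+RS5 replicate 2, the array of high olfactory mucosa signal, all 9 members passed 1.2-fold, and without CRST+RS5 replicate 1, Slc17a6 (-0.24) and Cdh13 (-0.23) did not.

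**Figure D2:**
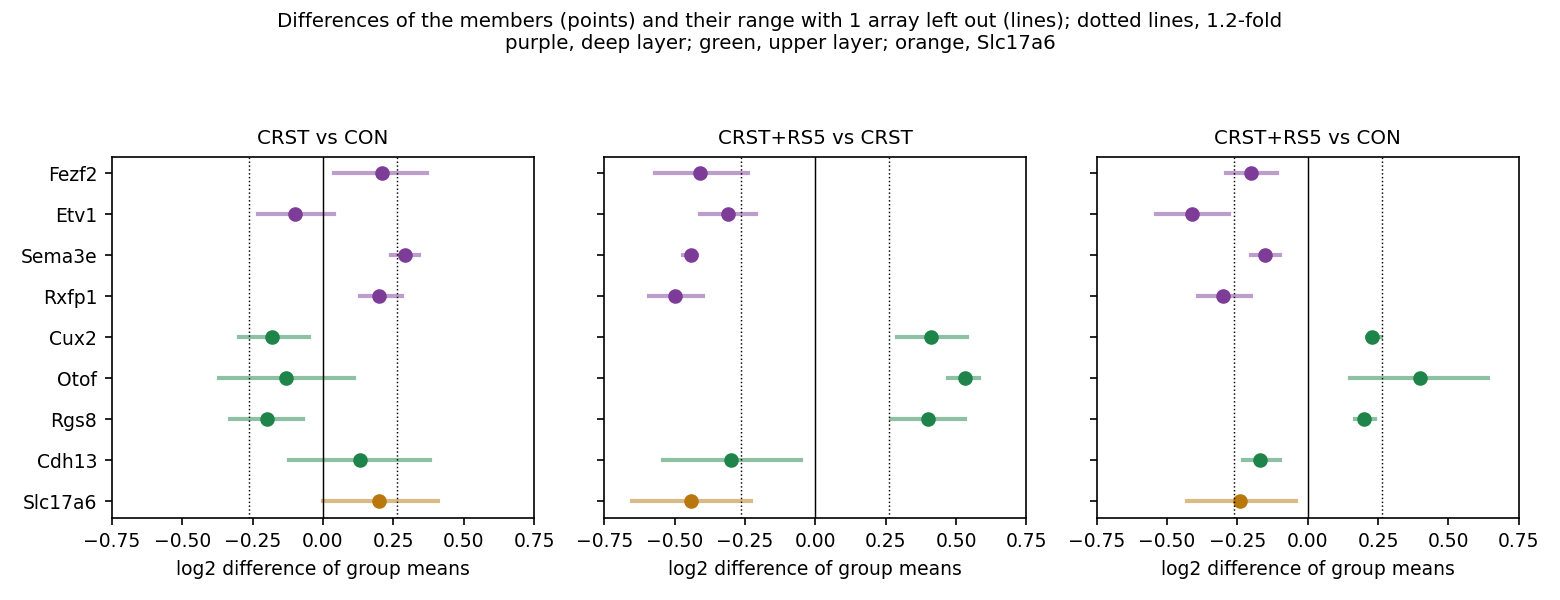
Log2 difference of group means of each member in the 3 comparisons (points) with its lowest and highest value when 1 array was left out (lines); dotted lines mark 1.2-fold. Deep layer genes and Slc17a6 lay below 0 and Cux2, Otof and Rgs8 above 0 in both comparisons of CRST+RS5, and the line of Cdh13 reached -0.05 against CRST.

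To see where the mice given both treatments stood relative to unstressed mice, CRST+RS5 was compared with CON. All 4 deep layer members, Cdh13 and Slc17a6 had a lower mean in CRST+RS5 and the other 3 upper layer members a higher one, and 3 of the 9 passed 1.2-fold. The median difference was -0.25 for the 4 deep and 0.22 for the 4 upper layer members, against -0.01 over all probes. Etv1 (-0.41 ± 0.11) and Rxfp1 (-0.30 ± 0.09) passed 1.2-fold downward, as did 1.31% of all probes. After background correction by neqc these differences were -0.72 and -0.76, and that of Sema3e was -0.29. Otof (0.40 ± 0.14) passed it upward, as did 2.57% of all probes. The other deep layer genes differed by -0.20 ± 0.12 for Fezf2 and -0.15 ± 0.08 for Sema3e. Cux2 was at 0.23 ± 0.10, Rgs8 at 0.20 ± 0.10, Cdh13 at -0.17 ± 0.14 and Slc17a6 at -0.24 ± 0.17. The arrays did not overlap for 3 members that were higher and 5 that were lower, beside 17.7% and 22.2% of all probes, and those of Slc17a6 overlapped. None of the members passed limma's test: the adjusted p was 0.519 for Etv1, 0.566 for Rxfp1, 0.604 for Otof, 0.62 for Cux2, and 0.659 to 0.815 for the other 5. No probe of 13083 passed (1045 at an unadjusted p under 0.05), and the CRST+RS5 arrays had served to choose the members. The 95% confidence intervals of limma, not adjusted for the number of probes, ran from -0.66 to -0.16 for Etv1, -0.51 to -0.08 for Rxfp1, 0.08 to 0.72 for Otof, and 0.02 to 0.45 for Cux2. They included 0 for Fezf2 (-0.47 to 0.06), Sema3e (-0.33 to 0.03), Rgs8 (-0.02 to 0.43), Cdh13 (-0.49 to 0.16) and Slc17a6 (-0.61 to 0.14). Because the members were chosen on these arrays, the intervals are a description and do not decide whether a member differed. The value of Otof rested on the CON arrays: it was 0.15 without CON replicate 1 and 0.64 without CON replicate 2. Etv1 was at -0.54 and -0.28 in the same way, past 1.2-fold each time. Rxfp1 was at -0.22 without CON replicate 1 and -0.20 without CRST+RS5 replicate 1, below 1.2-fold. Without CRST+RS5 replicate 2, 5 members passed 1.2-fold, among them Slc17a6 at -0.43 and Fezf2 at -0.29, and Slc17a6 was at -0.04 without CRST+RS5 replicate 1.

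The balance of the layers was summarised on each array as the mean log2 signal of the 4 deep minus that of the 4 upper layer members. It is a relative measure, since the signals of different probes cannot be set against each other, and is given as the distance from the CON mean. The deep mean was at -0.03 and 0.03 in CON, 0.09 and 0.21 in CRST, and -0.30 and -0.23 in CRST+RS5. The upper mean was at -0.06 and 0.06, -0.11 and -0.08, and 0.14 and 0.19. Both means separated the groups, in opposite orders. Deep minus upper was 0.03 and -0.03 in CON, 0.20 and 0.29 in CRST, and -0.44 and -0.43 in CRST+RS5. Group means thus differed by 0.25 for CRST and CON, -0.68 for CRST+RS5 and CRST, and -0.43 for CRST+RS5 and CON, with no test because the members had been chosen on these arrays. No array left out brought the first below 0.20 or the second above -0.63, and the third stayed between -0.46 and -0.40. Their size depended on the background correction, and with neqc they were 0.35, -1.04 and -0.69. Cdh13 did not move with the other upper layer genes, and without it the differences were 0.32, -0.86 and -0.54. It was left out with its values known, so a larger balance followed from that choice. No other member was left out in this way, and nothing is read from the increase.

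Other genes of the same layers were read from lists of 22 deep and 22 upper layer genes, of which 7 and 9 had a named probe. Members aside, these were Tbr1, Tle4 and Zfpm2 for the deep layers and Wfs1, Pvrl3, Stard8 (2 probes), Inhba and Calb1 for the upper layers, and Calb1, encoding calbindin, was not detected on both arrays of any group. Like the members, they carry a name because the study selected them on these arrays. In CRST+RS5 compared with CRST, the 3 deep layer genes were all lower and past 1.2-fold, beside 1.75% of all probes. They passed by the way they were named, from that comparison. Tbr1, a transcription factor of corticothalamic neurons, was at -0.27, Tle4, a corepressor of the Groucho family in the same neurons, at -0.36, and Zfpm2, a cofactor of GATA factors, at -0.27. Zfpm2 was at 10.03 and 11.29 on the CRST arrays and at 10.00 and 10.78 on those of CRST+RS5, and its arrays overlapped, as did those of Tle4. Tbr1 was at 12.05 and 12.34 in CRST and at 11.80 and 12.04 in CRST+RS5, below both CRST and CON arrays.

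Of the 5 detected upper layer probes outside the members, all were higher in CRST+RS5 than in CRST and 4 passed 1.2-fold, beside 2.89% of all probes. These counts are a description too, because Wfs1, Pvrl3 and 1 probe of Stard8 were named from that comparison. Wfs1, encoding the endoplasmic reticulum protein wolframin, had 11.16 and 11.05 in CON, 10.92 on both arrays of CRST, and 11.33 and 11.39 in CRST+RS5. Its groups were separate in the order of Cux2 and Rgs8, with a difference of 0.44 from CRST and 0.26 from CON. Pvrl3, the adhesion molecule nectin-3, had 10.62 and 10.70, 10.43 and 10.20, and 10.74 and 10.47. It was lower in CRST than in CON by a log2 difference of -0.34, and in CRST+RS5 it overlapped CON. Stard8, a GTPase-activating protein, differed between CRST and CON by -0.35 and -0.29 with its 2 probes and between CRST+RS5 and CRST by 0.31 and 0.40. Inhba, which encodes a subunit of activin, was lower in CRST (-0.34) and in CRST+RS5 (-0.28) than in CON and differed by 0.06 between both, the one detected gene of the list outside the criterion there. In CRST compared with CON all 5 probes were lower without overlap and 4 passed 1.2-fold, beside 14.3% and 0.864% of all probes. Nothing is read from these counts, because Pvrl3, Inhba and 1 probe of Stard8 were named from that comparison. In CRST+RS5 compared with CON 2 of the 5 were higher and 3 lower, from -0.28 for Inhba to 0.26 for Wfs1, with a median of -0.04.

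**Figure D3:**
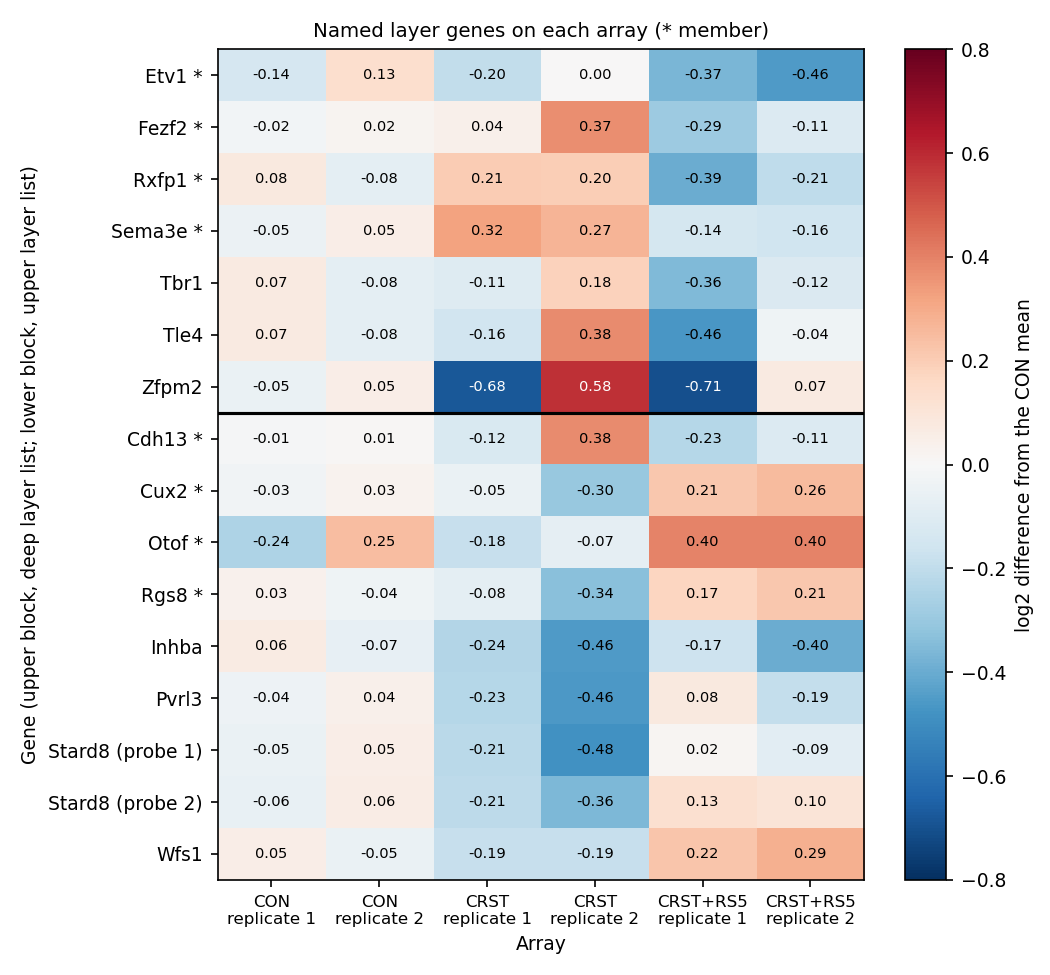
Log2 difference from the CON mean of each named and detected probe of the deep layer list (upper block) and the upper layer list (lower block) on the 6 arrays; red is higher, blue lower, and a star marks a member. Wfs1, Cux2, Rgs8 and Stard8 (probe 2) have separate groups in the same order. Fezf2, Tbr1, Zfpm2, Tle4 and Cdh13 are highest on CRST replicate 2.

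Genes of other tissue parts moved with the same arrays, and they too carry a name because the study selected them on these arrays. The myelin list (21 of 34 genes named, 24 detected probes) had a median difference from the CON mean of -0.22 on CRST replicate 1 and 0.87 on CRST replicate 2, against -0.22 and -0.03 in CRST+RS5, and its summed signal was 79789 and 171832 in CRST, 90497 and 95890 in CON and 81913 and 94101 in CRST+RS5. Mbp, the myelin basic protein, was at 13.97 and 15.24 in CRST, and Cldn11, a claudin of the myelin sheath, at 13.49 and 14.82. On CRST replicate 2, 4 of the 7 deep layer probes had their highest and 6 of the 9 upper layer probes their lowest signal. The share of all probes with such an extreme on this array was not counted, so nothing is read from these counts. The part of the myelin list in the values of the layer genes was not tested. Between both CRST arrays, Cdh13 lay 0.50 apart, Slc17a6 0.41, Fezf2 0.33, Rgs8 0.26, Cux2 0.25, Etv1 0.20, Otof 0.11, Sema3e 0.05 and Rxfp1 0.01.

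The meningeal list (23 of 34 genes named, 23 detected probes) had medians of -0.22 and 0.22 in CON, -0.55 and -0.07 in CRST, and 0.58 and 0.73 in CRST+RS5, and its summed signal ranged from 11670 to 17417 in CRST, 15577 to 22741 in CON and 32891 to 33834 in CRST+RS5. All 23 probes were higher in CRST+RS5 than in CRST and past 1.2-fold, beside 2.89% of all probes. This count is a description, because most of these probes were named from that comparison. Ptgds, a prostaglandin synthase of the meninges and the gene of highest signal in the list, was at 11.32 and 12.04 in CRST and 13.23 and 13.29 in CRST+RS5. Igf2 and Mgp, the next in signal, were higher by a log2 difference of 1.18 and 1.28. The vessel wall list (5 of 18 named) had medians of -0.20 and -0.11 in CRST and 0.44 and 0.39 in CRST+RS5, and its summed signal ran from 5605 to 6596 and from 9399 to 10594. From the list of microglia and macrophages (5 of 12 named, 4 detected probes), only MHC class II and border macrophage genes were named. Their medians were -0.20 and -0.30 in CRST and 0.35 and 0.53 in CRST+RS5. Astrocyte genes (3 of 9 named) had -0.15 and -0.16 in CRST and 0.10 and -0.04 in CRST+RS5, and they were split. Gjb6 (0.29) and Aqp4 (0.41) were higher in CRST+RS5 than in CRST, and Aldh1l1 was lower (-0.29). Cux2, Otof and Rgs8 were thus high on the same arrays as the meningeal genes, whose part in their values was not tested. No probe of these lists could be at 0, since the lowest signal on any array was 87.4.

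The olfactory bulb list (7 of 21 named, 6 detected probes) had medians of -0.34 and -0.22 in CRST and 0.03 and 0.56 in CRST+RS5, and its highest summed signal (5899, against 2875 to 4096 on the others) was on CRST+RS5 replicate 2. Its part in the values of the layer genes was not tested. Between both CRST+RS5 arrays, Cux2 and Rgs8 lay 0.04 apart and Slc17a6 0.39.

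**Figure D4:**
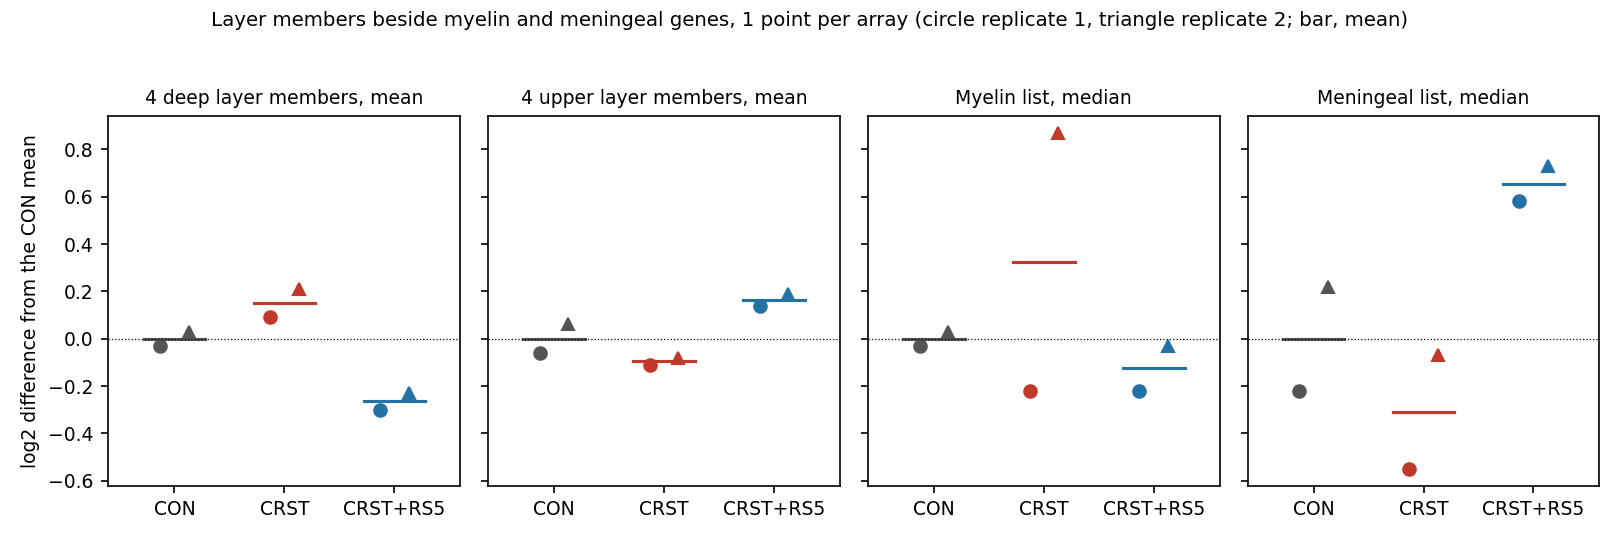
Difference from the CON mean on each array (log2) of the mean of the 4 deep layer members, the mean of the 4 upper layer members, the median of the myelin list and the median of the meningeal list; circles are replicate 1, triangles replicate 2 and bars group means. The myelin median stood at 0.87 on CRST replicate 2 and at -0.22 on CRST replicate 1, and the meningeal median followed the order of the upper layer mean by group.

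The genes most like the deep and upper layer profiles were sought among 670 named detected probes by Pearson's r over the 6 arrays, as a description, since these probes share the selection of the members and their arrays. Closest to the deep layer mean were Atp6ap2, an accessory subunit of the vacuolar proton pump (r = 0.981), Vwc2l, a secreted protein with a von Willebrand factor type C domain (0.979), Relch (0.979), Fundc1, a mitophagy receptor (0.979), and Chst8, a sulfotransferase (0.976). Vwc2l had 9.85 and 9.83 in CON, 9.98 and 10.15 in CRST, and 9.51 and 9.65 in CRST+RS5, in the order of Fezf2. Between 11 and 20 of all detected probes were closer than these 5. Closest to the upper layer mean were S100a11 (0.994), Anxa2 (0.994), Ppic (0.994), Ifitm3 (0.992) and Doc2g (0.992). S100a11 had 9.28 and 9.62 in CON, 9.09 and 9.28 in CRST, and 9.87 and 10.03 in CRST+RS5. Anxa2 and S100a11 encode an annexin and its binding partner, Ifitm3 an interferon-induced membrane protein and Doc2g a protein of the olfactory bulb list. None of the 5 belonged to the upper layer list. Among the members, Cux2 and Rgs8 mirrored the deep layer mean (r = -0.95 each), Slc17a6 (0.85) and Cdh13 (0.78) ran with it, and Cdh13 ran against the mean of the upper layer genes to which it belonged (r = -0.52).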

How the data were processed

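Total RNA of the PL was labelled and hybridised to mouse Ref-8 bead arrays. Scanned signals were extracted by the authors in GenomeStudio, and the deposited signal intensity is the average over the beads of a probe on a linear scale. A deposited detection p-value stands beside each intensity; whether background had been subtracted is not given in the sources used here. The authors also deposited quantile normalized log2 values. Here the deposited intensities were taken to log2 and quantile normalized over all 6 arrays, with no background correction (R 4.3.3, limma 3.58.1); the outcome correlated with the deposited log2 values at r = 0.999996 for each array. A probe was kept if each array of 1 group or more detected it at p below 0.05 (13083 of 25697). Groups were taken from the condition in the labels. Each array is a pool of its own, so p-values measure the spread between pools.

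Differences of group means were read at 1.2-fold (0.26 on the log2 scale) and by limma's moderated test of 3 groups in 1 fit, adjusted over all 13083 probes by Benjamini-Hochberg at 0.05. The test was checked on simulated data. The study's supplementary lists pair 899 probes with 884 symbols, and 851 of the probes matched RefSeq; other probes are unnamed here. The columns of the authors' own comparisons in these lists were not used. The text names the members, the other named genes of the layer lists, the 5 named probes most like each layer mean and, of other lists, genes among the 3 of highest signal. One named gene of the myelin list is not reported here. Members and lists were chosen with earlier results of these data known. Alternatives covered the normalization, the background correction, the authors' log2 table, the pseudocount, the detection filter, the arrays in the fit, each array left out and the replicate number as a block.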

Additional observations from a re-analysis of the deposited data

How the results depend on the processing

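With 2 arrays per group, the number of pools limits every value, and Rxfp1, which lies near background, went from -0.50 to -1.19 in CRST+RS5 against CRST when background was corrected by neqc. All members kept their direction in both comparisons of CRST+RS5, under every alternative and with each array left out. Their direction against CRST was largely set in advance, because they had been chosen from that comparison on these arrays. The comparison with CON shares the CRST+RS5 arrays, so the kept direction is a description in both. In CRST against CON all kept it under the other alternatives, and with an array left out Etv1 (-0.23 to 0.04), Otof (-0.37 to 0.11), Cdh13 (-0.12 to 0.38) and Slc17a6 (0.00 to 0.41) changed sign or reached 0. Rxfp1 has no value where detection on all 6 arrays was required.

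Scaling to a common median put the median of all probes at -0.11 in CRST+RS5 against CRST. There 1427 probes passed 1.2-fold, 211 higher and 1216 lower, against 378 and 229 by quantiles, deep minus upper was -0.62, and Cux2 was at 0.27 and Rgs8 at 0.25. In CRST against CON 309 probes passed, 244 higher and 65 lower, against 102 and 113 by quantiles, and 3 members passed; against CON, 5 members of CRST+RS5 passed and 649 probes, 219 higher and 430 lower, against 336 and 172. Background correction by neqc gave 1398, 2040 and 1928 probes past 1.2-fold for CRST against CON, CRST+RS5 against CRST and CRST+RS5 against CON, where quantiles alone gave 215, 607 and 508, deep minus upper of 0.35, -1.04 and -0.69, and 2 members in CRST against CON; in CRST+RS5 against CRST Sema3e was at -0.80 and Etv1 at -0.57. With 50 added to the signal before log2, 130 probes and 0 members passed in CRST against CON, and deep minus upper was -0.62 in CRST+RS5 against CRST. The cause of these shifts was not tested.

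Leaving out 1 array gave 372 to 823 probes past 1.2-fold for CRST against CON, 863 to 1223 for CRST+RS5 against CRST and 567 to 1085 for CRST+RS5 against CON, since the mean of a group then rests on 1 array. Deep minus upper ranged from 0.20 to 0.29, -0.73 to -0.63 and -0.46 to -0.40, and members past 1.2-fold from 1 to 6, 5 to 9 and 2 to 5. Probes past limma's adjusted p ranged from 0 to 14, 0 to 31 and 0 to 11, the lone array of a group being assumed to vary like the others; none was a member tested here. The labels give each group the same replicate numbers, and the study prepared the groups as 2 independent sets, but neither the labels nor the methods say that a number marks a set, and deviations of arrays with the same number correlated at r = 0.247, 0.259 and 0.0509, so the arrays were not paired. In the fit that took the replicate number as its block, 34 probes passed the adjusted p in CRST+RS5 against CRST and 0 in the other comparisons; differences of means stayed as they were. A fit of only the compared groups passed 0 probes in each comparison.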
